A study of Rattus norvegicus with 6 samples.

Results

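Enzymes of glucose, fructose and polyol metabolism were followed in the kidneys of diabetic rats that received Qishen Yiqi dripping pill (QYDP), a compound of 4 herbs, and of diabetic rats that received saline. The set held 45 genes chosen for their place in these pathways, with earlier results of these data known. Of these, 36 had an array row paired with exactly 1 gene symbol, out of 18166 such genes on the array. By role they were 17 of 22 glycolytic genes, 6 of 7 gluconeogenic genes, all 4 polyol and fructose genes, 2 of 3 pentose phosphate genes, 4 of 6 glycogen genes, and 3 of 3 genes outside these roles, namely Gfpt1 and Gfpt2 of the hexosamine branch and Txnip. Rows of Tpi1, Eno1, Pkm, G6pc1 and Pgd were shared with other genes, so that no value is given for these 5. Hk1, Pgam1, Gbe1 and Gaa were not analysed here.

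The HQYDP group here was 3 male Sprague Dawley rats made diabetic with streptozotocin (60 mg/kg), which kills pancreatic β cells. They were then treated with the high dosage of QYDP, 300 mg/kg/day by gavage for 8 weeks. The DM group here was 3 male Sprague Dawley rats with the same injection, which received saline in place of the pill. In the paper both groups held more rats than those with arrays. The labels give an age of 17 weeks for all 6 rats. RNA of the kidney cortex was hybridized to Affymetrix Rat Gene 2.0 ST arrays, 1 per rat, and values are log2 signals as deposited. All 6 rats were diabetic, no array of a normal rat was analysed here, and the 3 DM arrays alone are marked as a re-analysis in the labels, so a batch and the treatment cannot be told apart. Some markers of the kidney were among the brightest genes. Lrp2 of the proximal tubule was at 11.76 to 11.89 in HQYDP kidneys and 11.69 to 11.78 in DM kidneys. Umod of the thick ascending limb was at 12.12 to 12.37 in HQYDP kidneys and 11.44 to 11.71 in DM kidneys, without overlap. Other kidney markers were less bright, such as Wt1 of podocytes at percentile 62.7 of all genes by mean value.

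Glucose that enters a cell is phosphorylated and broken down to pyruvate by glycolysis, and the same carbon can be diverted to glycogen, to the pentose phosphate pathway or to hexosamines. In the polyol pathway glucose is reduced to sorbitol and then oxidized to fructose, and this route carries more flux in diabetes. The proximal tubule both makes glucose, by gluconeogenesis, and burns fructose through ketohexokinase, whereas glycolysis is more active in distal segments. Values here are from whole pieces of cortex, in which fewer cells of a type and less RNA per cell cannot be told apart.

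Most of these enzymes had log2 differences between HQYDP and DM kidneys that were small beside their intervals. Pfkfb3, which makes the main allosteric activator of phosphofructokinase, fell by 0.59 on the log2 scale in HQYDP kidneys. It was the 1 member of 36 past the study's thresholds (fold change above 1.5, unadjusted p below 0.05), with p from limma's moderated test. Across all 18166 genes 3.28% passed these thresholds in either direction, and 1.82% passed them as lower in HQYDP, against 2.78% of the members in both counts. Of the 596 genes past the thresholds 266 were higher and 330 lower in HQYDP kidneys, and after median centring of the arrays 394 were higher and 251 lower. At the same named thresholds the paper reports fewer genes, with more of them higher than lower in HQYDP kidneys. The reason for this difference was not tested. Tkfc, Pklr, Pck2 and Pfkfb3 had an unadjusted p under 0.05 from limma's moderated test, which is 4 of 36 members or 11.1%, against 7.38% of all genes. No member had an adjusted p under 0.05 after Benjamini-Hochberg adjustment over all genes with limma, where 0.0165% of all genes did, and the lowest adjusted p of a member was 0.506. The median log2 difference of the 36 members was -0.05, with 15 above and 21 below 0 (20 above 0 after median centring), beside a median of 0.0 for all genes. The median size of the difference regardless of sign was 0.15 for the members and 0.14 for all genes. For 34 of the 36 members the 95% confidence interval of the log2 difference lay within 1 of 0, the exceptions being Pfkfb3 and Pklr.

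**Figure D1:**
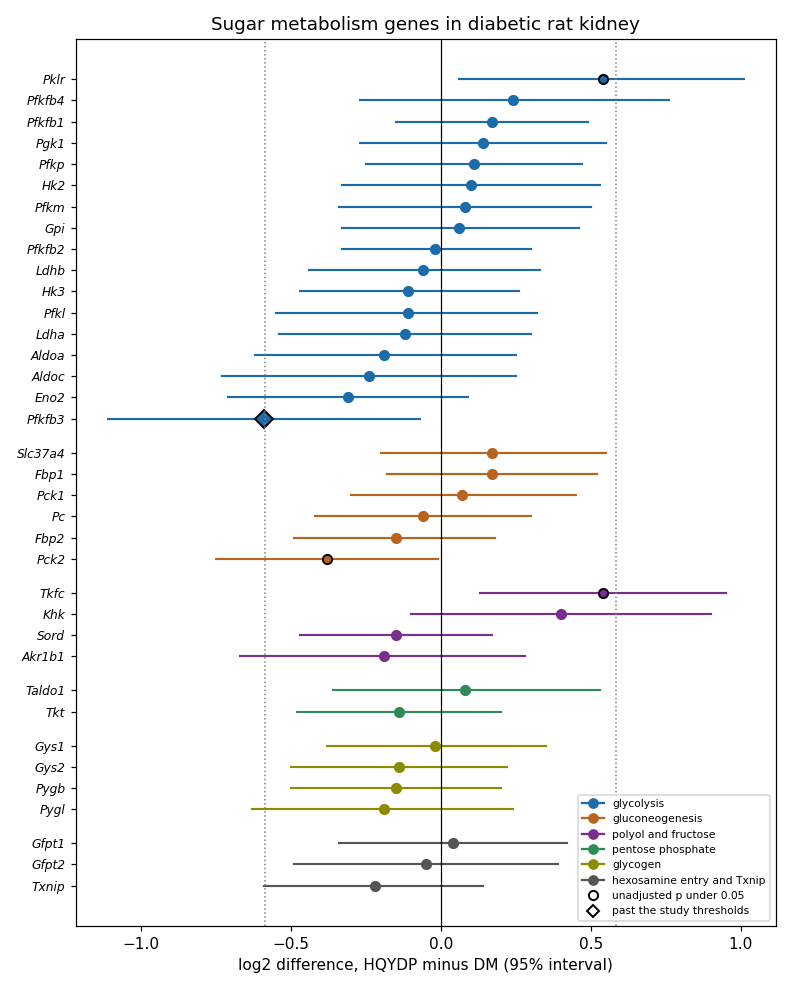
Log2 difference between HQYDP and DM kidneys (x axis) for each of the 36 measured genes (y axis), coloured by role, with 95% confidence intervals from limma and dotted lines at a fold of 1.5. Points outlined in black are the 4 genes with an unadjusted p under 0.05, and the diamond is Pfkfb3, the 1 gene past both study thresholds, while 30 of the 36 points lie within 0.3 of 0.

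Tkfc encodes triokinase, which phosphorylates the glyceraldehyde released from fructose so that it can join glycolysis. Its log2 values were 9.88, 9.95 and 9.61 in HQYDP kidneys, against 9.37, 8.97 and 9.49 in DM kidneys. All 3 HQYDP arrays were above all 3 DM arrays, and DM replicate 2 was the lowest. The log2 difference was 0.54 (standard error 0.18, 95% interval 0.13 to 0.95, adjusted p = 0.506 from limma), a fold change of 1.45 that lay just under the study threshold of 1.5.

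Pklr encodes the pyruvate kinase of liver and red blood cells, whose liver form is also made in the proximal tubule. Its log2 values were 8.94, 8.78 and 8.58 in HQYDP kidneys, against 8.16, 7.87 and 8.66 in DM kidneys. The groups overlapped because DM replicate 3 was above HQYDP replicate 3, whereas DM replicates 1 and 2 were below every HQYDP array. The log2 difference was 0.54 (standard error 0.21, adjusted p = 0.595 from limma), also a fold change of 1.45.

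Pfkfb3 had log2 values of 5.47, 5.89 and 6.35 in HQYDP kidneys, against 6.31, 6.75 and 6.42 in DM kidneys. HQYDP replicate 1 was the lowest array, and HQYDP replicate 3 lay within the range of the DM arrays. The log2 difference was -0.59 (standard error 0.23, 95% interval -1.11 to -0.07, adjusted p = 0.588 from limma). The fold change of 1.51 was just past the threshold, and the call was lost with the methods' t-test (-0.59, not past its p threshold), with quantile normalization (-0.54) and with median centring of the arrays (-0.52).

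Pck2 encodes the mitochondrial form of phosphoenolpyruvate carboxykinase, an enzyme of gluconeogenesis that is also induced by amino acid shortage in cultured cells. Its log2 values were 6.26, 6.40 and 6.33 in HQYDP kidneys, against 6.80, 6.44 and 6.89 in DM kidneys. The groups did not overlap, but HQYDP replicate 2 and DM replicate 2 were close together. The log2 difference was -0.38 (standard error 0.17, adjusted p = 0.67 from limma), a fold change of 1.3. Its unadjusted p was above 0.05 with the methods' t-test, unequal variances, a replicate block, quantile normalization or median centring. Over all members 4 of 36, or 11.1%, had groups without overlap, namely Tkfc, Pck2, Sord and Pfkfb1, against 12.1% of all genes.

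**Figure D2:**
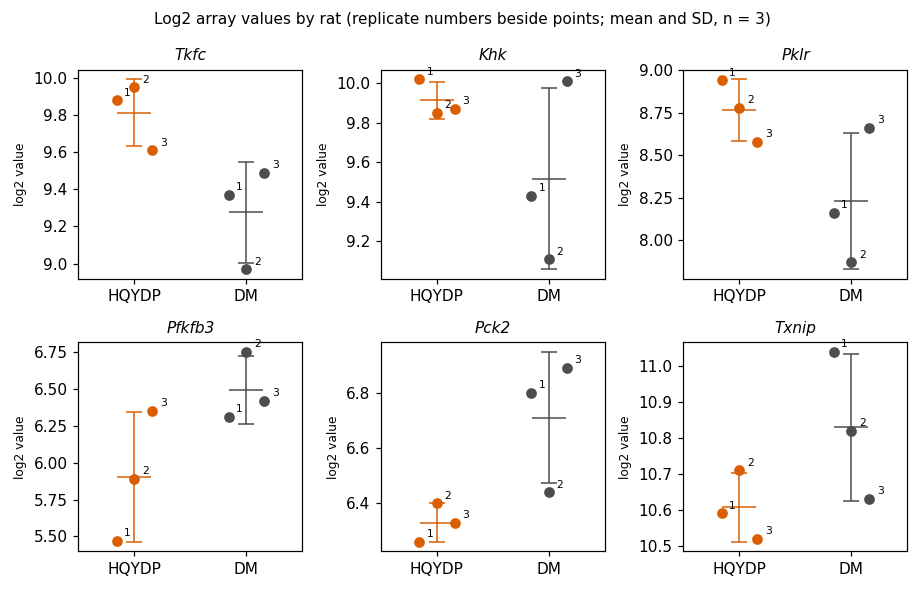
Log2 array values (y axis) of Tkfc, Khk, Pklr, Pfkfb3, Pck2 and Txnip in HQYDP (left) and DM (right) kidneys, with the replicate number beside each point and the mean and SD (n = 3). In Khk and Pklr DM replicate 3 lies among the HQYDP arrays, at 10.01 and 8.66, while DM replicate 2 is the lowest array at 9.11 and 7.87.

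The promoters of these 4 genes are shown because they are the members with the smallest p-values. RefSeq holds a promoter for 30 of the 36 measured genes (build GRCr8, 250 bases before to 50 after the annotated start), and motifs were searched on both strands and are in capitals. The motifs were the E-box CACGTG, the TATA box TATAAA, the GC box GGGCGG, the C/EBP-ATF composite TGATGNAAN, and the paired sites CACGGG and CCCGTG separated by 5 bases, whose letters were taken from the carbohydrate response element known in this Pklr promoter, so that their match there is no independent result. No overlaps between these motifs were found in the 4 promoters.
Pfkfb3, chr17:71944683-71944982, plus strand: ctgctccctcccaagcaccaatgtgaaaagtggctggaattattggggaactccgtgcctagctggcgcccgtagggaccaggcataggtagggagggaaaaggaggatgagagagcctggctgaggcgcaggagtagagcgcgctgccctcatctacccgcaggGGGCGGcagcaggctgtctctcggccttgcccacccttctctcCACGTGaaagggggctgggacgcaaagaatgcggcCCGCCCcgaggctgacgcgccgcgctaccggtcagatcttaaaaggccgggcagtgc
Pklr, chr2:176841014-176841313, plus strand: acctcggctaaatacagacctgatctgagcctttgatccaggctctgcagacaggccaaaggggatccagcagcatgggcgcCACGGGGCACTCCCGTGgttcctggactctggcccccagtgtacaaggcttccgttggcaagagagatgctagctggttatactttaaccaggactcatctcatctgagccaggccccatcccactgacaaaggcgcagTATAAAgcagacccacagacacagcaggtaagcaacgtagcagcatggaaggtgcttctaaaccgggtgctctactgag
Pck2, chr15:32997603-32997902, plus strand: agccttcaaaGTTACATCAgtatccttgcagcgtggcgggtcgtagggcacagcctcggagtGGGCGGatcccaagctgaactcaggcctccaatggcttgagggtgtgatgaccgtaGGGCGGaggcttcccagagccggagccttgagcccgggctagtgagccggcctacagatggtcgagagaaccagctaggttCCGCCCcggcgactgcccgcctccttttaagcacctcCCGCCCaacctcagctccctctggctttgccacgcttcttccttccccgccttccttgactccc
Tkfc, chr1:216677608-216677907, minus strand: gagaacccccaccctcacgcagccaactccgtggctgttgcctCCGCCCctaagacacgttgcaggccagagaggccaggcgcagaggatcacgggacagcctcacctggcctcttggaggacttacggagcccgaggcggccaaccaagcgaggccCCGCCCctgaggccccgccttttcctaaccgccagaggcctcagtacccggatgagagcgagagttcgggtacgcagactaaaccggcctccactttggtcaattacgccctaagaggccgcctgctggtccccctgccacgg

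The Pklr promoter held the paired sites, starting 168 bases before the annotated start, and a TATA box 29 bases before it. Among the 27457 RefSeq promoters of the same length the paired sites were found in 1, that of Pklr itself, and a TATA box in 14.3%. The Pfkfb3 promoter held an E-box 42 bases before the start, which 6.65% of all promoters hold, and among the members only Pfkfb3 and Ldha held one. The Pck2 promoter held a C/EBP-ATF composite 240 bases before the start, which 3.8% of all promoters hold. GC boxes were found in the promoters of Pfkfb3, Pck2 and Tkfc, in 20 of the 30 members' promoters and in 34.9% of all promoters. A match describes letters only, and binding of any factor was not measured.

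In glycolysis, 1 of 17 measured genes, or 5.88%, was past the study thresholds, against 3.28% of all genes, and the median log2 difference of the group was -0.02, with 8 genes above and 9 below 0. Hexokinases trap glucose in the cell, and Hk2 and Hk3 had log2 differences of 0.10 and -0.11. The phosphofructokinase subunits Pfkl, Pfkm and Pfkp, the committed step of the pathway, had -0.11, 0.08 and 0.11. Pfkl was 7.48, 7.61 and 7.71 in HQYDP kidneys, against 7.45, 7.58 and 8.12 in DM kidneys, so that DM replicate 3 alone stood above the other arrays.

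All 4 bifunctional enzymes that set the level of fructose 2,6-bisphosphate were measured. Besides Pfkfb3 with -0.59, Pfkfb4 had a log2 difference of 0.24 (95% interval -0.27 to 0.76, adjusted p = 0.923 from limma), Pfkfb1 had 0.17 and Pfkfb2 had -0.02. Pfkfb4 was 6.71, 6.37 and 6.70 in HQYDP kidneys, against 6.37, 5.89 and 6.79 in DM kidneys, where DM replicate 2 was the lowest and DM replicate 3 the highest of the 6 arrays. Pfkfb1, the liver and muscle form, was 4.03, 4.06 and 3.91 in HQYDP kidneys, against 3.88, 3.84 and 3.77 in DM kidneys. These groups did not overlap, but the gene was dim, at percentile 20.4 of all genes by mean value, and the adjusted p was 0.908 from limma. With the methods' t-test its unadjusted p was under 0.05, as was that of Tkfc and of no other member. Whether the 4 enzymes differ from each other in their response was not tested.

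The remaining steps of glycolysis were measured by Gpi, Aldoa, Aldoc, Pgk1, Eno2, Pklr, Ldha and Ldhb. Eno2, the enolase typical of neurons, was 5.19, 4.82 and 5.19 in HQYDP kidneys, against 5.34, 5.61 and 5.18 in DM kidneys, a log2 difference of -0.31 (limma adjusted p = 0.804). The aldolases Aldoa and Aldoc had -0.19 and -0.24, with the highest value of each in DM replicate 1. Aldoc was dim, at percentile 20.1 of all genes by mean value. Pgk1, which makes the first ATP of the pathway, had 0.14, and Gpi, which interconverts glucose and fructose phosphates, had 0.06. Lactate dehydrogenase, which links pyruvate to lactate, had -0.12 for the A chain Ldha (95% interval -0.54 to 0.30) and -0.06 for the B chain Ldhb (95% interval -0.44 to 0.33). Of these 8 genes only Pklr had an unadjusted p under 0.05.

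In gluconeogenesis, none of 6 measured genes passed the study thresholds, and the median log2 difference was 0.0, with 3 genes above and 3 below 0. The paper names G6PC (G6pc1 here) among its differentially expressed genes, in the FoxO signaling pathway. G6pc1 had only rows shared with other genes, so that it is not among these 6. Pck1, the cytosolic phosphoenolpyruvate carboxykinase that limits glucose synthesis in the proximal tubule, was 12.15, 12.42 and 12.25 in HQYDP kidneys, against 12.29, 11.96 and 12.35 in DM kidneys. The groups overlapped, and the log2 difference was 0.07 (95% interval -0.30 to 0.45, adjusted p = 0.984 from limma). Pc, which carboxylates pyruvate in the mitochondrion, had -0.06. Fbp1, the fructose bisphosphatase of liver and kidney, had 0.17, and its muscle counterpart Fbp2 had -0.15. Slc37a4, which carries glucose phosphate into the endoplasmic reticulum for release as glucose, was 8.52, 8.77 and 8.52 in HQYDP kidneys, against 8.25, 8.38 and 8.66 in DM kidneys, a log2 difference of 0.17 (limma adjusted p = 0.927).

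In the polyol pathway the log2 differences were -0.19 for Akr1b1 and -0.15 for Sord, and in fructose metabolism they were 0.40 for Khk and 0.54 for Tkfc. Akr1b1 encodes aldose reductase, which makes sorbitol from glucose. It was 6.66, 6.45 and 6.78 in HQYDP kidneys, against 6.71, 7.28 and 6.49 in DM kidneys (adjusted p = 0.94 from limma), and DM replicate 2 alone stood above the other arrays. Sord, the sorbitol dehydrogenase that makes fructose, was 8.91, 8.94 and 9.07 in HQYDP kidneys, against 9.08, 9.17 and 9.12 in DM kidneys. Its groups did not overlap, though the fold change was 1.11 (95% interval of the log2 difference -0.47 to 0.17, adjusted p = 0.924 from limma). Khk encodes ketohexokinase, which commits fructose to breakdown without feedback control. It was 10.02, 9.85 and 9.87 in HQYDP kidneys, against 9.43, 9.11 and 10.01 in DM kidneys (standard error 0.22, 95% interval -0.10 to 0.90, adjusted p = 0.796 from limma). As for Pklr, DM replicate 3 lay among the HQYDP arrays and DM replicates 1 and 2 lay below them. None of the 4 genes passed the study thresholds, and the median log2 difference was 0.12.

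In the pentose phosphate pathway Tkt and Taldo1, transketolase and transaldolase of its non-oxidative branch, had log2 differences of -0.14 and 0.08. Tkt was 8.77, 8.95 and 9.01 in HQYDP kidneys, against 9.17, 9.05 and 8.95 in DM kidneys (adjusted p = 0.937 from limma). Taldo1 was 9.32, 9.38 and 9.53 in HQYDP kidneys, against 8.98, 9.28 and 9.72 in DM kidneys (adjusted p = 0.986 from limma). Both genes overlapped between the groups.

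All 4 measured glycogen genes had log2 differences below 0, from -0.19 to -0.02, although Gys1 was above 0 with quantile normalization (0.04) and median centring (0.05), and none had an unadjusted p under 0.05. Pygl, the glycogen phosphorylase of liver, was 7.6, 7.54 and 7.69 in HQYDP kidneys, against 7.46, 7.77 and 8.17 in DM kidneys, a log2 difference of -0.19 (95% interval -0.63 to 0.24, adjusted p = 0.931 from limma). Pygb, the brain form, was 7.05, 7.0 and 7.33 in HQYDP kidneys, against 7.2, 7.3 and 7.33 in DM kidneys, a log2 difference of -0.15 (limma adjusted p = 0.931). The groups overlapped in both phosphorylases. The glycogen synthases Gys1 and Gys2 had -0.02 and -0.14, and Gys2, the liver form, was dim, at percentile 12.4 of all genes.

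Among the other 3 genes, Gfpt1 and Gfpt2, which open the hexosamine pathway that is fed by excess glucose, had log2 differences of 0.04 and -0.05. Gfpt2 was 4.61, 4.41 and 4.78 in HQYDP kidneys, against 4.54, 5.02 and 4.39 in DM kidneys, and both the highest and the lowest array were DM kidneys. Txnip, an inhibitor of thioredoxin whose transcription rises with glucose, was 10.59, 10.71 and 10.52 in HQYDP kidneys, against 11.04, 10.82 and 10.63 in DM kidneys. The groups overlapped through DM replicate 3, and the log2 difference was -0.22 (95% interval -0.59 to 0.14, adjusted p = 0.876 from limma).

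The highest or lowest of the 6 arrays was a DM kidney more often than an HQYDP kidney, both in these genes and over all genes. DM replicate 3 had the highest value of the 6 arrays in 12 of the 36 members, among them Pfkl, Ldha, Ldhb, Pck2, Pygl and Taldo1, while it was the highest in 17.2% of all genes. DM replicate 2 was the lowest in 8 members, which included Khk, Tkfc, Pklr, Fbp1, Pck1 and Pc, and the highest in 7, which included Akr1b1, Pfkfb3, Eno2 and Gfpt2. These counts were near its shares over all genes, where it was the lowest in 20.1% and the highest in 20.7%. DM replicate 1 was the highest in 7 members, among them Aldoa, Aldoc and Txnip, and the lowest in 9, among them Pgk1, Slc37a4 and Pygl, and over all genes it was the highest in 19.3% and the lowest in 17.7%. HQYDP replicate 1 was the highest in 2 members, Pklr and Khk.

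**Figure D3:**
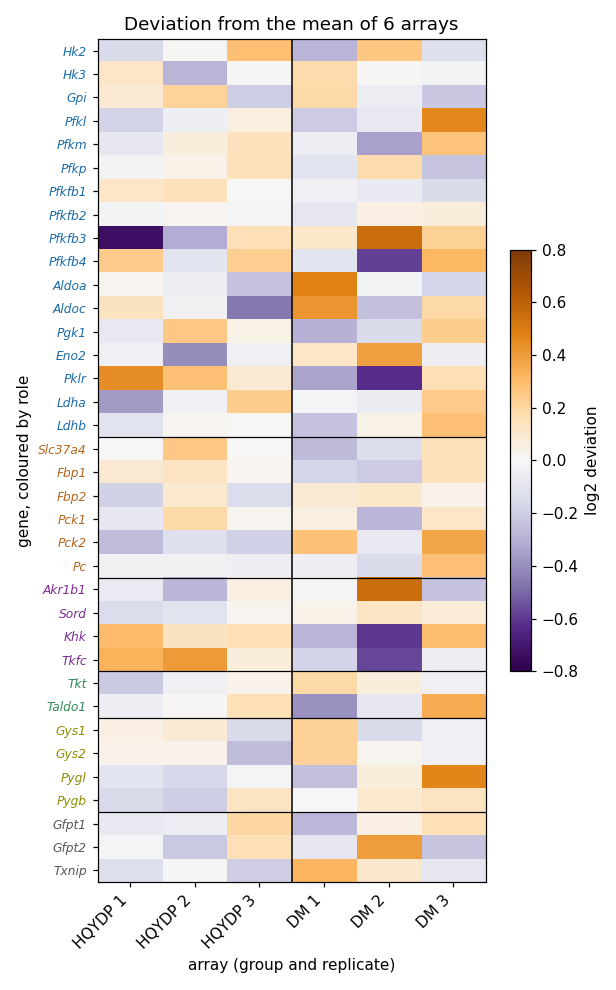
Deviation of each log2 value from the mean of the 6 arrays (colour scale) for 36 genes (rows, ordered and coloured by role) on each array (columns, HQYDP left of DM). DM replicate 2 is low in Khk, Tkfc, Pklr and Pfkfb4 and high in Akr1b1 and Pfkfb3, and DM replicate 3 is high in 12 genes.

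Markers of tubular injury, of the interstitium and of tubule segments varied over the same arrays. The 4 injury markers averaged 6.43, 5.96 and 6.08 in HQYDP kidneys, against 7.98, 8.09 and 6.37 in DM kidneys, so that DM replicate 3 was next to the HQYDP arrays. Havcr1, which encodes KIM-1, was 6.88, 5.91 and 6.72 in HQYDP kidneys, against 10.37, 9.99 and 6.76 in DM kidneys. Lcn2 was 6.61, 6.04 and 5.51 in HQYDP kidneys, against 9.02, 9.11 and 6.15 in DM kidneys. Krt18 did not share this order, with 5.77, 5.85 and 5.66 in HQYDP kidneys, against 6.19, 5.67 and 6.09 in DM kidneys. Nor did Vcam1, with 6.45, 6.02 and 6.41 in HQYDP kidneys, against 6.35, 7.58 and 6.49 in DM kidneys, where DM replicate 1 was below HQYDP replicates 1 and 3. The 4 fibroblast and matrix markers averaged 7.19, 6.53 and 7.02 in HQYDP kidneys, against 7.33, 8.52 and 7.24 in DM kidneys, with DM replicate 2 the highest, and the 4 macrophage markers averaged 5.6, 5.21 and 5.29 in HQYDP kidneys, against 6.05, 6.49 and 5.43 in DM kidneys. Of these lists, 2 injury, 2 matrix and 3 macrophage markers were lower at the study thresholds, beside 1.82% of all genes, and none was higher. The 6 markers of the early proximal tubule averaged 10.10, 10.36 and 9.84 in HQYDP kidneys, against 10.33, 10.31 and 10.15 in DM kidneys, and none passed the study thresholds in either direction. Lrp2 had a log2 difference of 0.10, and the others were all below 0, from -0.59 for Slc5a12 to -0.03 for Slc5a2. Of the 5 markers of the late proximal tubule 1 was higher and 1 lower. Of 4 thick ascending limb and 4 intercalated cell markers, 3 each were higher and none was lower, beside 266 of all 18166 genes that were higher. The markers counted as higher, Umod, Egf, Casr, Slc26a4, Atp6v1b1 and Atp6v0d2, are among the paper's differentially expressed genes from this comparison. Their count is therefore no independent result. No measured marker of podocytes, distal convoluted tubule, collecting duct principal cells, endothelium or T and B cells passed the study thresholds. The 3 podocyte markers Nphs1, Podxl and Wt1 were higher in HQYDP kidneys by 0.49, 0.47 and 0.39. Their groups did not overlap, beside 12.1% of all genes. The part of these cells and of injury in the values of Khk, Tkfc, Pklr and Pfkfb3 was not tested.

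The results for Khk, Pklr, Tkfc, Pfkfb3 and Pck2 depended on single arrays. Without DM replicate 2 the log2 differences were 0.19 for Khk, 0.36 for Pklr, 0.39 for Tkfc and -0.46 for Pfkfb3, no member passed the study thresholds, and Pck2, with -0.52, alone had an unadjusted p under 0.05. Without DM replicate 3 they were 0.65 for Khk, 0.75 for Pklr, 0.65 for Tkfc and -0.63 for Pfkfb3, and all 4 genes passed the study thresholds, although 1109 of all genes then passed them as well, instead of 596. Without HQYDP replicate 1 or 2 no member passed, and Pfkfb3 had -0.37 and -0.59. Without HQYDP replicate 3 the genes past the thresholds were Pfkfb3, Pklr and Tkfc. In each of these 5 genes the sign was the same whichever array was left out.

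**Figure D4:**
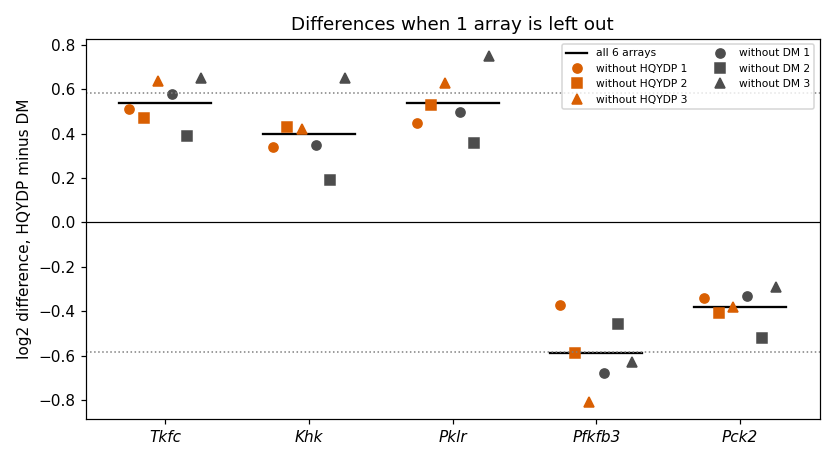
Log2 difference between HQYDP and DM kidneys (y axis) for 5 genes (x axis) with all 6 arrays (black bars) and with each array left out (points), with dotted lines at a fold of 1.5. Khk ranges from 0.19 without DM replicate 2 to 0.65 without DM replicate 3, and Pfkfb3 from -0.81 to -0.37.

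Of a wider list of 67 genes that feed, regulate or extend these pathways, 55 were measured. Of these, 2 were higher and 1 was lower in HQYDP kidneys at the study thresholds, which is 5.45%, against 3.28% of all genes. Their adjusted p-values from limma were all above 0.05. Pdk4, the kinase that inhibits pyruvate dehydrogenase and so spares glucose carbon, was 7.78, 7.66 and 7.75 in HQYDP kidneys, against 8.86, 8.95 and 8.76 in DM kidneys, and fell by 1.12 on the log2 scale (standard error 0.14, adjusted p = 0.0576 from limma). The groups were far apart relative to their spread, and the difference was -1.17 to -1.08 when any 1 array was left out. The 3 other isoforms Pdk1, Pdk2 and Pdk3 had log2 differences of 0.15, 0.03 and 0.31. Pgm3, which acts in the hexosamine pathway downstream of Gfpt1, was 6.90, 6.90 and 7.13 in HQYDP kidneys, against 6.16, 6.25 and 6.53 in DM kidneys, and rose by 0.66 (limma standard error 0.16, adjusted p = 0.322). Me1, malic enzyme, which makes NADPH from malate, was 8.78, 8.96 and 8.93 in HQYDP kidneys, against 8.07, 8.48 and 8.25 in DM kidneys, and rose by 0.62 (limma standard error 0.16, adjusted p = 0.357). In Me1 and Pgm3 every HQYDP array was above every DM array. Groups did not overlap in 12 of the 55 genes of the list, or 21.8%, against 12.1% of all genes. Me1 and Pgm3 were under the fold threshold without DM replicate 1, with 0.52 and 0.58, and Me1 also without HQYDP replicate 2, with 0.58. Cebpb, a transcription factor of gluconeogenic genes, was the 1 other gene of the list with an unadjusted p under 0.05, and had -0.48 (adjusted p = 0.556 from limma). These 4 of 55 genes, or 7.27%, compare with 7.38% of all genes.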

How the data were processed

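RNA of the kidney cortex of 3 HQYDP and 3 DM rats was hybridized to Affymetrix GeneChip Rat Gene 2.0 ST arrays. The authors deposited log2 values, 1 per row of the array, which were used without further scaling. How they were normalized, and with which software, is not given in sources used here, and the log base was read from their range, 0.35 to 13.59. Array medians lay within 0.15 of each other. Of 36685 rows, 18511 carry 1 gene symbol in the platform annotation, giving 18166 genes. Where a gene had several rows, that with the highest mean was used, and dim genes were kept. Symbols were checked by Entrez ID against RefSeq (GRCr8).

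HQYDP and DM were compared by limma 3.58.1 (R 4.3.3, two-sided, without covariates), and p-values were adjusted by Benjamini-Hochberg. The code was tested on simulated data. Members and lists were chosen with earlier results of these data known, and no test was made over a list. Values per array are given for members past the study thresholds, members without overlap and with a log2 difference over 0.4, the 2 largest differences of each role and isozyme partners of these. Eno2, Pfkl, Akr1b1 and Sord, and Cebpb of the wider list, were chosen after their values were seen. Alternatives were other tests, array weights, a replicate block, other scalings, a filter on dim genes, other rows and other thresholds, and leaving out each array. Each array is 1 rat per the labels, and the number of arrays limits the precision.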

Additional observations from a re-analysis of the deposited data

How the results depend on the processing

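No member had an adjusted p under 0.05 with limma or under any alternative. The number of members past the study thresholds, 1 with all arrays, was 0 with the methods' per-gene test, with the unequal-variance version and with quantile normalization. It was 2 with array weights (Pfkfb3 and Pklr), 2 with median centring (Pklr and Tkfc), 4 with the p threshold alone, and 0 to 4 when 1 array was left out. The number with an unadjusted p under 0.05, 4 in the main comparison, was 2 with the methods' test (Tkfc and Pfkfb1, of which Pfkfb1 was not among the 4), 0 with unequal variances, 2 with quantile normalization and 0 to 5 when 1 array was left out. Over all genes the count of 596 became 278 with the methods' test and 200 with unequal variances, and it was 504 to 1109 when 1 array was left out, the highest without DM replicate 3. The cause of these changes was not tested.

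The median difference of glycolysis was 0.04 with quantile normalization and 0.05 with median centring, and -0.05 to 0.03 when 1 array was left out. That of polyol and fructose genes was 0.19 with median centring and 0.09 to 0.25 when 1 array was left out, and that of glycogen genes -0.08 with median centring and -0.15 to -0.08 when 1 array was left out. The hexosamine genes with Txnip ranged from -0.18 to 0.08. Among single genes the sign turned with quantile normalization for Pfkfb2 (0.04), Gys1 (0.04) and Pck1 (-0.04), and with median centring for Pfkfb2 (0.05), Gys1 (0.05), Ldhb (0.01), Pc (0.0) and Gfpt2 (0.02). When 1 array was left out the sign turned in 16 genes, whose ranges were Hk2 -0.03 to 0.25, Hk3 -0.19 to 0.01, Gpi -0.03 to 0.18, Pfkl -0.25 to 0.09, Pfkm -0.07 to 0.24, Pfkfb2 -0.07 to 0.01, Aldoa -0.32 to 0.01, Ldha -0.26 to 0.04, and Ldhb -0.19 to 0.07, Pck1 -0.05 to 0.15, Pc -0.15 to 0.06, Akr1b1 -0.36 to 0.03, Taldo1 -0.09 to 0.28, Gys1 -0.10 to 0.09, Gfpt1 -0.08 to 0.13, Gfpt2 -0.18 to 0.13. The largest difference among these genes was 0.19 in size, and the other 23 genes followed here, the 3 wider genes included, kept their sign under every alternative run.

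The replicate numbers were not taken to pair the samples, since the labels name no shared source. The correlations of same-numbered deviations from the group means were 0.14, -0.08 and 0.21. With so few rats they cannot settle whether the samples were paired. HQYDP replicates 1 and 3 correlated best with the DM replicate of their own number, and HQYDP replicate 2 with DM replicate 1. With the replicate number as a block 661 of all genes and 1 member passed the study thresholds, and 3 members had an unadjusted p under 0.05. Signal over background was not in the values used here, so that dim genes such as Gys2 may be limited by it.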
